A study of Homo sapiens with 27 samples.

Results

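HSD11B2, which encodes the dehydrogenase that oxidises cortisol to inactive cortisone, was described together with 8 genes that carry or report glucocorticoid signalling: the receptor gene NR3C1 and the responsive genes FKBP5, TSC22D3, PER1, SGK1, ZBTB16, KLF9 and DUSP1. The 9 genes were taken by symbol from 36536 genes in the deposited table. Each had 1 row, and all 9 passed the filter on low counts that left 15575 genes for testing. HSD11B2 was chosen by its lower measured level in EGF+OSM and in OSM+TGFB than in PBS, so its values against PBS are given as a description with no test. The other 8 genes were added for their known link to the hormone, with earlier results of these data known.

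The cells were MCF10A, 1 established line of non-tumorigenic human mammary epithelial cells. All 9 groups were grown with horse serum, epidermal growth factor (EGF, 20 ng/ml), hydrocortisone (0.5 µg/ml, the drug name of cortisol), cholera toxin and insulin, and then kept for 18 h without growth factors. Libraries of polyadenylated RNA were made from 3 samples per group, 27 in all, and the study asked how responses to combined ligands relate to those to single ligands. The T0 group was collected untreated at 0 h. The other 8 groups were collected at 24 h after fresh medium with phosphate-buffered saline (PBS), with EGF, with oncostatin M (OSM, a relative of interleukin-6), with transforming growth factor beta (TGFB), with the pairs EGF+OSM, EGF+TGFB and OSM+TGFB, or with EGF+OSM+TGFB, called the triple. Each ligand was given at 10 ng/ml. Whether the medium without growth factors held hydrocortisone is not given in the sources used here, so the hormone exposure of each group is unknown.

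Glucocorticoids cross the cell membrane and bind the receptor encoded by NR3C1, which is held ready by chaperones of the HSP90 and HSP70 families. The bound receptor enters the nucleus, where it induces some genes by binding palindromic response elements and lowers the transcription of many inflammatory genes. The supply of active hormone within a cell is set by opposing enzymes: HSD11B2 removes cortisol, and HSD11B1, with reducing power made by H6PD, regenerates it. HSD11B2 is best known from the kidney, where it keeps cortisol away from the mineralocorticoid receptor. In the mammary epithelium glucocorticoids support differentiation and survival, and hydrocortisone is a standard part of the MCF10A culture medium.

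Totals per library were between 30.1 M and 52.9 M (mega) counts (median 39.5 M), and levels are given per 1 M counts (CPM) after trimmed-mean scaling. Replicate libraries correlated at r = 0.988 to 0.992 over genes on the log2 scale, and every pair differed by more than counting noise. The chi-square over its degrees of freedom was 6.84 to 33.9. The highest of these values was between OSM replicates 2 and 3. OSM replicate 3 had lower levels than both other OSM libraries for all of the 9 genes described here but NR3C1. The labels do not say whether replicates were separate cultures, so p-values measure the spread between these samples, which may be technical. All 10 epithelial markers, among them keratins, integrins, TP63 and the EGF receptor gene EGFR, had a mean of at least 1 CPM in every group. Their summed level was 13251 to 15011 CPM in PBS and 25175 to 26572 CPM in OSM+TGFB. That of the 8 luminal hormone markers was 440 to 462 CPM in PBS and 948 to 981 CPM in the triple. Of the markers of other cells, 5 of 10 immune and endothelial and 2 of 8 fibroblast markers had a mean of at least 1 CPM in PBS, among them CD14 at 31.2 CPM and DCN at 91.6 CPM. Others of these lists, PTPRC with 2 to 4 counts, CD3E with 0 to 5, COL3A1 with 0 and CDH5 with 0 to 2 per PBS library, were near 0. The markers named here were picked after their values were seen, so they do not decide whether other cells were present. The summed level of the 8 fibroblast markers was 141 to 149 CPM in PBS and 13.3 to 15.7 CPM in EGF+OSM, and that of the 10 immune and endothelial markers was 95.7 to 104 CPM in PBS and 29.1 to 32.1 CPM in EGF+TGFB. The part of these differences in the results below was not tested. In bulk RNA, fewer cells that express a gene and less RNA per cell cannot be told apart.

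Of the 9 genes, 7 had an entry in the RefSeq promoter table (GRCh38.p14), and HSD11B2 and ZBTB16 had none. Starts in this and the next paragraph are those of the canonical GENCODE transcript. The gene spans given further on also hold transcripts that begin upstream of that start in NR3C1, FKBP5, TSC22D3 and PER1. The window within 5000 bases on either side of that start in those 7 genes was searched for the letters of a glucocorticoid response element, the half-sites GNACA and TGTNC set 3 bases apart, which read the same on both strands. The windows of 2 of the 7 genes, FKBP5 and PER1, held 1 match each, and 12.1% of 20046 protein-coding genes held at least 1. These 2 stretches are shown because they are the only matches in the 7 windows. TSC22D3, called lower in all 7 ligand groups as FKBP5 and PER1 were, had none in the window of its canonical start. Each is on the minus strand of GRCh38 in the direction of the gene, with the fixed letters of the motif in capitals. The FKBP5 stretch lies at chr6:35687750-35687778, in an intron 1151 bases after the start, and the PER1 stretch at chr17:8154453-8154481, at position -2063 from the canonical start and within the span of the gene's longer transcripts.
FKBP5: gtggttcaGgACAgtgTGTtCagcgtttg
PER1: agccaagaGaACAtgaTGTtCccaagtgc
A match to these letters is a description of the sequence, not a measured binding site, and the absence of a match in the other 5 windows says only that these letters are not there. Starts more than 5000 bases from the canonical one were not searched in any of the 7 genes. The spans of TSC22D3 (chrX:107713221-107777342) and SGK1 (chr6:134169248-134318112) reach far beyond their windows.

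The 250 bases before the canonical start of FKBP5, PER1 and DUSP1 are printed to set 2 of the 3 genes called lower in every ligand group beside 1 that was highest in the triple. For FKBP5 and PER1 they lie within the span of longer transcripts. Capitals mark the GC box GGGCGG, the E-box CACGTG and the cAMP response element TGACGTCA on either strand. Over 35116 promoters of the same length these letters occurred in 42.6%, 6.34% and 1.65%. The stretches are, from RefSeq GRCh38.p14 and all on the minus strand, chr6:35688916-35689165 for FKBP5, chr17:8152405-8152654 for PER1 and chr5:172771196-172771445 for DUSP1.
FKBP5: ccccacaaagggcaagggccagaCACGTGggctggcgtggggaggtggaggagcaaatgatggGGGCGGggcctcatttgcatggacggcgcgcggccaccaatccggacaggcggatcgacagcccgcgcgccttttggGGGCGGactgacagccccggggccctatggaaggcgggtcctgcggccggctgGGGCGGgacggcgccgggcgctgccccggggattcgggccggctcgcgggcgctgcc
PER1: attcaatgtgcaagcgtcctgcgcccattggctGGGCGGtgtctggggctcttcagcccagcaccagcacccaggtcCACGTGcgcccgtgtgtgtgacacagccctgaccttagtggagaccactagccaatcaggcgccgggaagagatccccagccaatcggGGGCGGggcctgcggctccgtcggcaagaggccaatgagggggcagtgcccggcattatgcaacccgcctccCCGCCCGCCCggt
DUSP1: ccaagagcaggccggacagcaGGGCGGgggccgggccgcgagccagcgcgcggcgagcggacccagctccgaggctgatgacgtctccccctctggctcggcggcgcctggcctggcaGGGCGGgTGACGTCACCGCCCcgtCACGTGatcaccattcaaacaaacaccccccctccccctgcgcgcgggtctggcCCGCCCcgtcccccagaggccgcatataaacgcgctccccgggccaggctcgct
All 3 held GC boxes, 3 in FKBP5, 4 in PER1 and 4 in DUSP1, and 1 E-box, 227, 173 and 108 bases before the start. The promoters not printed, those of NR3C1, TSC22D3, SGK1 and KLF9, held no E-box. NR3C1 held 3 GC boxes and TSC22D3 held 1, while SGK1 and KLF9 held none. The cAMP response element was found in DUSP1, 125 bases before the start, directly beside a GC box read on the other strand, and the 2 GC boxes of PER1 nearest to the start overlap each other. None of the 7 promoters held the glucocorticoid response element letters, which occur in 0.327% of all promoters, nor the half-site AGAACA, the STAT letters TTCNNNGAA or the AP-1 letters TGANTCA, found in 12.4%, 6.57% and 6.57% of promoters.

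HSD11B2 (chr16:67430652-67437553, plus strand of GRCh38, 5 exons in the canonical transcript) was highest in PBS and was lower in all 7 ligand groups. Its level was 395, 529 and 552 CPM in the 3 PBS libraries, and 170, 226 and 180 CPM in the 3 T0 libraries. In the EGF libraries it was 40.7, 54.5 and 42.4 CPM, and in the OSM libraries 8.34, 12 and 7.61 CPM. In the TGFB libraries it was 206, 260 and 293 CPM. The TGFB libraries lay below PBS and overlapped T0, while every EGF and OSM library lay below both controls.

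The combinations were lower still. HSD11B2 was at 3.20, 3.26 and 3.03 CPM in EGF+OSM and at 2.67, 4.34 and 3.80 CPM in OSM+TGFB. In EGF+TGFB it was at 6.68, 13 and 14.1 CPM, and in the triple at 0.880, 1.15 and 0.815 CPM, or 26 to 36 counts per library. No library of any ligand group reached the lowest PBS library, and the triple lay below every other group. The group means fell in the order PBS 492 ± 84.9, TGFB 253 ± 43.5, T0 192 ± 30.0, EGF 45.9 ± 7.55, EGF+TGFB 11.3 ± 4.0, OSM 9.32 ± 2.36, OSM+TGFB 3.60 ± 0.853, EGF+OSM 3.16 ± 0.116 and triple 0.948 ± 0.177 CPM (SD, n = 3). Neighbours in this order overlapped in 3 of 8 cases: TGFB with T0, EGF+TGFB with OSM, and OSM+TGFB with EGF+OSM.

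**Figure D1:**
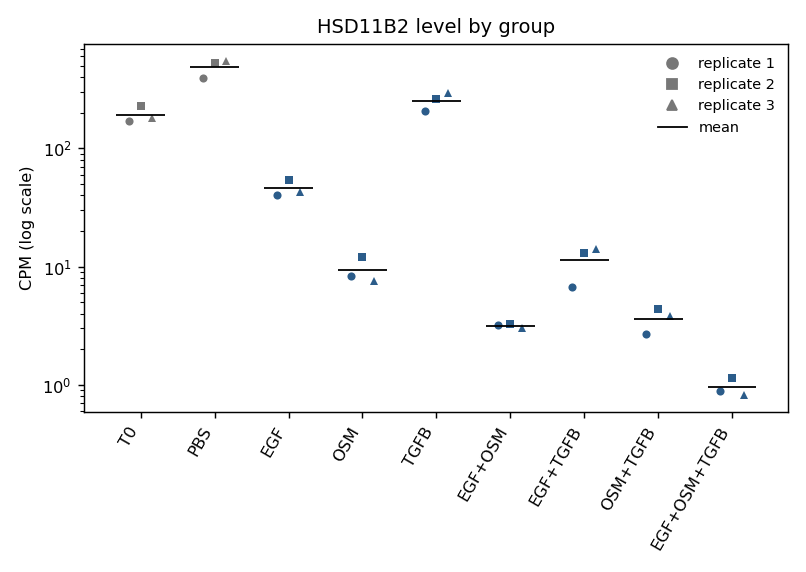
HSD11B2 level in CPM (log axis) in each of the 27 libraries by group; symbols are replicates and lines are means of 3. The levels span from 552 CPM in a PBS library to 0.815 CPM in a library of the triple, and all ligand groups lie below PBS.

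On the fitted log2 scale, the differences of HSD11B2 from PBS were -3.42 for EGF, -5.71 for OSM and -0.96 for TGFB, that is 10.7-fold, 52.3-fold and 1.95-fold lower. In the pairs they were -7.28 (EGF+OSM), -5.45 (EGF+TGFB) and -7.10 (OSM+TGFB), and in the triple -9.03, that is 524-fold lower. If log2 fold changes of the single ligands added, EGF+OSM would have been at 0.869 CPM, below the measured 3.16 CPM. The same sum predicted 23.6 CPM for EGF+TGFB, above the measured 11.3 CPM, and 4.79 CPM for OSM+TGFB against the measured 3.60 CPM. For the triple it predicted 0.446 CPM against 0.948 CPM. The ratio of measured to predicted level was 3.64 in EGF+OSM, 2.12 in the triple, 0.477 in EGF+TGFB and 0.752 in OSM+TGFB. The last is small beside the spread of the libraries, with OSM at 9.32 ± 2.36 and OSM+TGFB at 3.60 ± 0.853 CPM (SD, n = 3). Its direction is thus uncertain, and none of these departures was tested.

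HSD11B2 was tested in 10 contrasts that used no library of PBS, EGF+OSM or OSM+TGFB. In these and all later tests, the adjusted p comes from the quasi-likelihood test of edgeR, adjusted by the Benjamini-Hochberg method over 15575 genes, and a gene is called at an adjusted p under 0.05. Contrasts with T0 also differ by 24 h in time. Against T0 the level fell with EGF (log2 -2.07, SE 0.20, edgeR adjusted p = 1.84e-08) and with OSM (log2 -4.35, SE 0.24, edgeR adjusted p = 2.9e-12). It also fell with EGF+TGFB (log2 -4.10, SE 0.23, edgeR adjusted p = 2.29e-12) and with the triple (log2 -7.67, SE 0.32, edgeR adjusted p = 1.25e-14). TGFB against T0 did not pass, with a log2 difference of 0.40 (SE 0.19, edgeR adjusted p = 0.0943), and passed at 0.52 (edgeR adjusted p = 0.0475) without TGFB replicate 1. Of all genes, 36.6%, 27.8%, 36.5% and 35.7% were called lower against T0 with EGF, OSM, EGF+TGFB and the triple, and 26.2% higher with TGFB.

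Between ligand groups, OSM lowered HSD11B2 further than EGF did, with 4.88-fold less in OSM (log2 -2.29, SE 0.23, edgeR adjusted p = 4.59e-08). Adding TGFB to EGF took it 4.09-fold lower than EGF alone (log2 -2.03, SE 0.23, edgeR adjusted p = 2.2e-07), and EGF+TGFB was 22.5-fold below TGFB (log2 -4.49, SE 0.24, edgeR adjusted p = 9.29e-13). Adding OSM to EGF+TGFB took it 12-fold lower (log2 -3.58, SE 0.37, edgeR adjusted p = 2.69e-07). The triple was 10.0-fold below OSM alone (log2 -3.32, SE 0.38, edgeR adjusted p = 1.93e-07). The shares of all genes called lower in these 5 contrasts were 28.8%, 27.7%, 35.5%, 12.8% and 30.9%. In all 5 the libraries of the 2 groups did not overlap.

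The genes whose log2 CPM ran most closely with that of HSD11B2 over the 27 libraries, among 12421 genes with a mean of at least 1 CPM, were CRABP2 (r = 0.99), CYSRT1 (0.99), KRT23 (0.99), GGT6 (0.99) and TMEM79 (0.98). CRABP2, which carries retinoic acid to its nuclear receptor, was at 262 ± 28 CPM in PBS and 5.92 ± 1.43 CPM in the triple (SD, n = 3). KRT23, a keratin, was at 15.0 ± 0.933 CPM in PBS and 0.149 ± 0.0245 CPM in the triple. The lowest coefficients were those of ADAM12 (-0.99), a metalloprotease at 5.21 ± 0.613 CPM in PBS and 227 ± 13 CPM in the triple, of SLC2A9 (-0.98) and of IL7R (-0.98). These points share libraries and the 9 groups, so the coefficients describe the same group pattern and carry no p.

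Of the other 8 genes, EGF lowered all 8 and raised 0, where 38.6% of all genes were called lower and 34.9% higher. OSM lowered 7 (29.8%) and raised SGK1 (33.5%). TGFB lowered 3 of the 8 (15.8% of all genes) and raised 1 (19.9%), and 4 were not called. EGF+OSM lowered 7 (39.6%), with 1 not called. EGF+TGFB and OSM+TGFB each lowered 6 (37.5% and 31.8%) and raised SGK1 (36.2% and 34.2%), with 1 not called. The triple lowered 6 (36.7%) and raised SGK1 and DUSP1 (37.7%). The 7 comparisons share the 3 PBS libraries. Because the 8 genes were chosen with earlier results of these data known, the shares of all genes are given as a description.

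The median log2 difference of the 8 genes from PBS was -1.05 in EGF, -0.69 in OSM, -0.14 in TGFB, -1.35 in EGF+OSM, -1.48 in EGF+TGFB, -0.90 in OSM+TGFB and -1.66 in the triple. Over all genes tested the median lay between -0.07 and 0.00. The direction differed among the genes: FKBP5, TSC22D3 and PER1 were called lower in 7 of 7 ligand groups, ZBTB16, KLF9 and NR3C1 in 6, DUSP1 in 3 and SGK1 in 1. SGK1 was called higher in 5 groups and DUSP1 in 1.

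**Figure D2:**
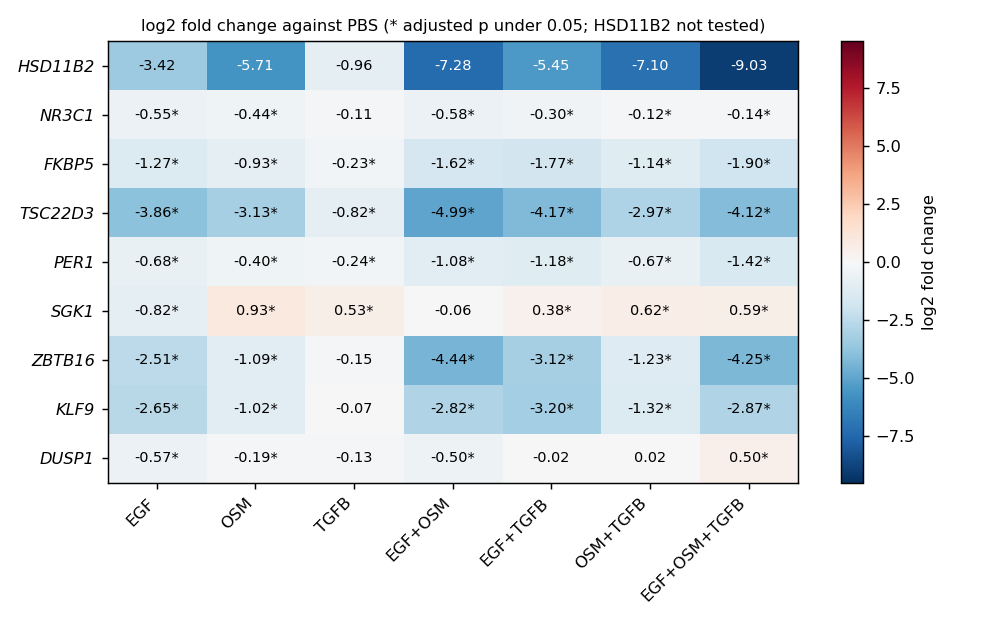
Fitted log2 fold change against PBS (colour and printed value) for the 9 genes in the 7 ligand groups; an asterisk marks an edgeR adjusted p under 0.05, and HSD11B2 was not tested. HSD11B2 reaches -9.03, TSC22D3 -4.99 and ZBTB16 -4.44, whereas SGK1 is higher than PBS in 5 groups and lower in EGF.

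**Figure D3:**
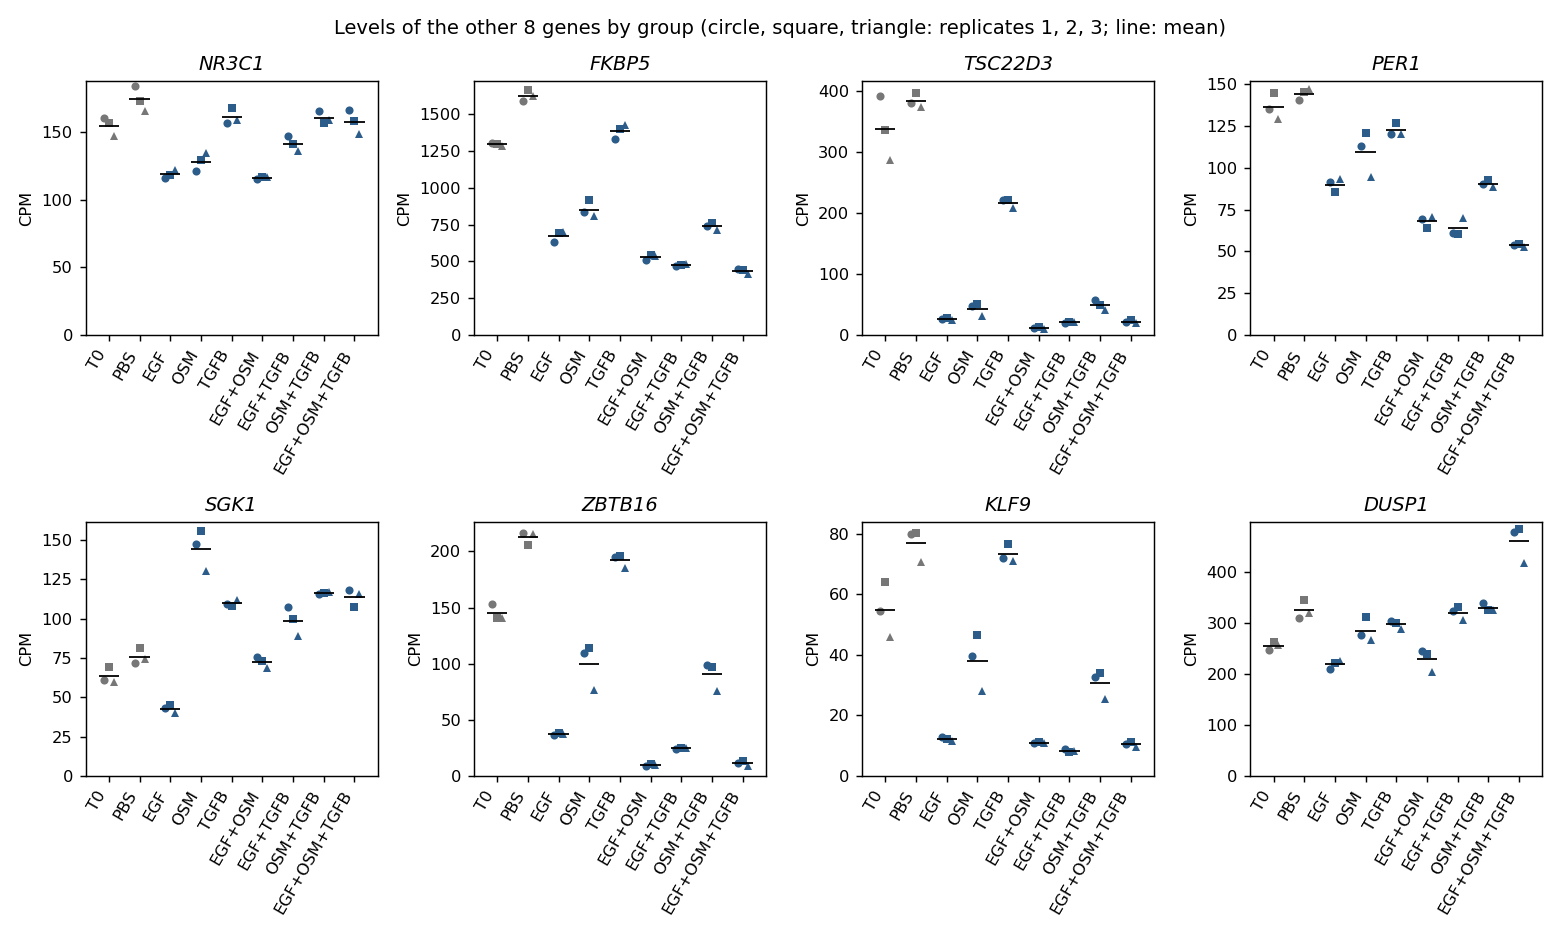
Levels of the other 8 genes in CPM (linear axes from 0) by group; symbols are replicates and lines are means of 3. FKBP5, TSC22D3, ZBTB16 and KLF9 share high levels in T0, PBS and TGFB and low levels in all groups with EGF, while SGK1 peaks in OSM and DUSP1 in the triple.

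NR3C1 (chr5:143277931-143435512, minus strand), the receptor gene, varied least, with a 1.5-fold range between its highest and lowest group. Its level was 184, 173 and 166 CPM in PBS, 116, 118 and 122 CPM in EGF, and 121, 129 and 134 CPM in OSM. In EGF+OSM it was 116, 117 and 117 CPM, with no library of these 3 ligand groups reaching PBS. The log2 change was -0.55 with EGF (edgeR adjusted p = 3.32e-10), -0.44 with OSM (edgeR adjusted p = 2.88e-08) and -0.58 with EGF+OSM (edgeR adjusted p = 9.41e-11).

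Where TGFB was present, NR3C1 stayed nearer to PBS. The level was 157, 168 and 159 CPM in TGFB, 147, 141 and 136 CPM in EGF+TGFB, 165, 157 and 159 CPM in OSM+TGFB and 167, 158 and 148 CPM in the triple. EGF+TGFB was above EGF alone by 0.25 on the log2 scale (edgeR adjusted p = 0.000151). The triple was above OSM by 0.30 (edgeR adjusted p = 1.41e-05), a contrast that adds EGF as well as TGFB. The difference of -0.30 in EGF+TGFB passed (edgeR adjusted p = 7.74e-06). The difference was -0.11 in TGFB (edgeR adjusted p = 0.0856), -0.12 in OSM+TGFB (edgeR adjusted p = 0.0415) and -0.14 in the triple (edgeR adjusted p = 0.0136). The call in OSM+TGFB was lost without PBS replicate 1 or 2 or without OSM+TGFB replicate 2 or 3, and that in the triple without PBS replicate 1 or triple replicate 3 (edgeR adjusted p of 0.0632 to 0.232). For TGFB a call was gained at -0.15 without PBS replicate 3 (edgeR adjusted p = 0.0447) and under upper-quartile scaling (edgeR adjusted p = 0.0207).

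FKBP5 (chr6:35573585-35728583, minus strand) encodes a co-chaperone that lowers the hormone affinity of the receptor and is itself induced by it. Its level was 1590, 1661 and 1623 CPM in PBS and 1303, 1294 and 1284 CPM in T0. It was 629, 692 and 697 CPM in EGF, 832, 915 and 809 CPM in OSM, and 1331, 1395 and 1423 CPM in TGFB. In the combinations the level was 507, 543 and 538 CPM in EGF+OSM, 467, 474 and 486 CPM in EGF+TGFB, 739, 762 and 715 CPM in OSM+TGFB, and 449, 441 and 417 CPM in the triple. No neighbours in the order of the 9 group means overlapped, and TGFB was the only ligand group above T0. The log2 change of FKBP5 was -1.27 with EGF (SE 0.05, edgeR adjusted p = 5.48e-17), -0.93 with OSM (SE 0.05, edgeR adjusted p = 1.49e-14) and -0.23 with TGFB (SE 0.05, edgeR adjusted p = 0.000462). It fell by 1.90 in the triple (SE 0.05, edgeR adjusted p = 5.45e-21), and all 3 pairs were called lower, with differences of -1.14 to -1.77. The triple and EGF+TGFB differed by -0.13 on the log2 scale, which did not pass (edgeR adjusted p = 0.0568).

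TSC22D3 (chrX:107713221-107777342, minus strand) encodes the glucocorticoid-induced leucine zipper protein, an inhibitor of inflammatory transcription factors. Its level was 380, 397 and 374 CPM in PBS, 391, 336 and 287 CPM in T0, and 221, 221 and 209 CPM in TGFB. It was 25.9, 28.1 and 25.1 CPM in EGF and 48.0, 50.7 and 32.3 CPM in OSM. The lowest group was EGF+OSM, at 11.8, 13.8 and 10.3 CPM, followed by EGF+TGFB at 20.6, 21.6 and 21.7 CPM. Every group with EGF or OSM lay below TGFB, T0 and PBS without overlap. After HSD11B2, TSC22D3 had the widest range of group means, 31.9-fold. Its log2 change was -3.86 with EGF (SE 0.15, edgeR adjusted p = 3.06e-15), -3.13 with OSM (SE 0.15, edgeR adjusted p = 6.22e-14) and -0.82 with TGFB (SE 0.13, edgeR adjusted p = 4.39e-05).

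In the triple TSC22D3 was at 21.5, 24.9 and 19.7 CPM, above EGF+OSM without overlap, and in OSM+TGFB it was at 57.2, 48.8 and 41.3 CPM, overlapping OSM. The log2 differences from PBS were -4.99 in EGF+OSM (edgeR adjusted p = 7.16e-17) and -4.12 in the triple (edgeR adjusted p = 5.17e-16). OSM replicate 3 was the lowest OSM library for all of the 9 genes but NR3C1. Without it the log2 change with OSM was -2.96 for TSC22D3 (edgeR adjusted p = 4.09e-14), -0.93 for ZBTB16 (edgeR adjusted p = 5.53e-08), -0.84 for KLF9 (edgeR adjusted p = 7.18e-07) and -0.31 for PER1 (edgeR adjusted p = 0.000119). HSD11B2 without that library differed by -2.16 between OSM and EGF (edgeR adjusted p = 1.07e-06) on the log2 scale. Between OSM and T0 it differed by -4.22 (edgeR adjusted p = 2.16e-10).

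ZBTB16 (chr11:114059041-114256765, plus strand), a zinc-finger transcriptional repressor with a strong response to glucocorticoids in many cells, followed a similar order. Its level was 216, 206 and 216 CPM in PBS, 153, 141 and 141 CPM in T0, and 195, 196 and 185 CPM in TGFB. EGF brought it to 36.6, 37.9 and 37.5 CPM and OSM to 109, 114 and 76.7 CPM. EGF+OSM brought it to 9.23, 10.8 and 9.30 CPM and the triple to 11.1, 13.7 and 8.74 CPM, which overlapped each other and lay below every other group. The log2 change was -2.51 with EGF (SE 0.13, edgeR adjusted p = 7.89e-14), -1.09 with OSM (SE 0.12, edgeR adjusted p = 5.28e-08) and -4.44 with EGF+OSM (SE 0.14, edgeR adjusted p = 2.71e-17). The TGFB difference of -0.15 was not called (edgeR adjusted p = 0.369), although its 3 libraries all lay below the lowest PBS library. Adding TGFB to EGF took the level to 24.0, 24.5 and 24.8 CPM, lower than in EGF (log2 -0.61, edgeR adjusted p = 0.000357). OSM+TGFB, at 98.9, 97.0 and 75.3 CPM, overlapped OSM.

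KLF9 (chr9:70384604-70414657, minus strand), a Krüppel-like factor that carries part of the hormone's effect on growth and differentiation, had 80.2, 80.4 and 70.9 CPM in PBS and 72.1, 76.8 and 71.2 CPM in TGFB. These 2 groups overlapped, and the difference of -0.07 was not called (edgeR adjusted p = 0.71). KLF9 was at 12.7, 12.4 and 11.7 CPM in EGF, 10.8, 11.1 and 10.8 CPM in EGF+OSM, 8.88, 8.02 and 8.26 CPM in EGF+TGFB and 10.7, 11.4 and 9.59 CPM in the triple. The 4 groups with EGF thus lay within a narrow band, below OSM at 39.6, 46.5 and 28 CPM and OSM+TGFB at 32.7, 34.1 and 25.5 CPM. The log2 change of KLF9 was -2.65 with EGF (SE 0.14, edgeR adjusted p = 1.64e-13), -1.02 with OSM (SE 0.13, edgeR adjusted p = 5.2e-07) and -3.20 with EGF+TGFB (SE 0.15, edgeR adjusted p = 1.07e-14).

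PER1 (chr17:8140472-8156506, minus strand), a repressor in the circadian clock that the receptor also induces directly, fell in all 7 groups by smaller amounts. Its level was 141, 145 and 147 CPM in PBS, 91.2, 85.5 and 92.9 CPM in EGF, 113, 120 and 94.1 CPM in OSM and 120, 127 and 120 CPM in TGFB. It was 69.5, 63.9 and 70.5 CPM in EGF+OSM, 60.7, 60.4 and 70.2 CPM in EGF+TGFB, 90.0, 92.9 and 88.5 CPM in OSM+TGFB and 53.7, 54.6 and 52.9 CPM in the triple. The triple lay below all other groups, and EGF+OSM overlapped EGF+TGFB. The log2 change was -0.68 with EGF (edgeR adjusted p = 1.43e-09), -0.40 with OSM (edgeR adjusted p = 1.11e-05), -0.24 with TGFB (edgeR adjusted p = 0.00666) and -1.42 with the triple (edgeR adjusted p = 9.38e-16).

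SGK1 (chr6:134169248-134318112, minus strand) encodes a kinase that raises sodium transport and survival signalling and responds to both glucocorticoids and mineralocorticoids. It did not follow the other genes. Its level was 72.0, 81.3 and 74.2 CPM in PBS, 43.3, 45.2 and 40.1 CPM in EGF and 148, 156 and 130 CPM in OSM. It was 109, 108 and 112 CPM in TGFB, 116, 117 and 117 CPM in OSM+TGFB, 107, 100 and 88.7 CPM in EGF+TGFB and 119, 107 and 116 CPM in the triple. These 5 groups lay above PBS, EGF lay below it, and EGF+OSM at 75.8, 73.3 and 68.6 CPM overlapped it. SGK1 fell by 0.82 with EGF (SE 0.07, edgeR adjusted p = 1.57e-10) and rose by 0.93 with OSM (SE 0.07, edgeR adjusted p = 1.7e-11) and 0.53 with TGFB (SE 0.07, edgeR adjusted p = 1.22e-06) on the log2 scale. The EGF+OSM difference was -0.06 (SE 0.07, edgeR adjusted p = 0.421). OSM and EGF differed by 1.75 (edgeR adjusted p = 2.61e-16).

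DUSP1 (chr5:172768096-172771195, minus strand) encodes a phosphatase that switches off MAP kinases and is induced both by glucocorticoids and by the kinases it inhibits. Its level was 311, 345 and 320 CPM in PBS, 209, 221 and 226 CPM in EGF, 277, 311 and 266 CPM in OSM and 245, 240 and 204 CPM in EGF+OSM. In the triple it was 480, 485 and 417 CPM, above every other group, while OSM+TGFB at 339, 326 and 325 CPM and EGF+TGFB at 323, 331 and 307 CPM overlapped PBS. DUSP1 fell with EGF (log2 -0.57, SE 0.07, edgeR adjusted p = 2.75e-08) and with EGF+OSM (log2 -0.50, SE 0.07, edgeR adjusted p = 1.93e-07), and rose with the triple (log2 0.50, SE 0.07, edgeR adjusted p = 2.14e-07). The OSM difference of -0.19 (edgeR adjusted p = 0.0155) lost its call without PBS replicate 2, OSM replicate 1 or OSM replicate 3 (edgeR adjusted p of 0.0579 to 0.0958), and the groups overlapped. The TGFB difference was -0.13 (edgeR adjusted p = 0.141).

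Over the 24 h between T0 and PBS, 6 of the 8 genes rose and 0 fell, beside 16.2% of all genes called higher and 18.9% lower. NR3C1 rose by 0.17 on the log2 scale (edgeR adjusted p = 0.00921), a call lost without T0 replicate 3 or PBS replicate 1 (edgeR adjusted p of 0.064 and 0.0712). FKBP5 rose by 0.33 (edgeR adjusted p = 8.79e-06), SGK1 by 0.26 (edgeR adjusted p = 0.00553), ZBTB16 by 0.55 (edgeR adjusted p = 0.000875), KLF9 by 0.49 (edgeR adjusted p = 0.00475) and DUSP1 by 0.35 (edgeR adjusted p = 0.000207). TSC22D3 at 0.18 (edgeR adjusted p = 0.313) and PER1 at 0.08 (edgeR adjusted p = 0.371) were not called. HSD11B2 was 2.56-fold higher in PBS than in T0, with no overlap and no test. T0 and PBS differ in time and in the change of medium, which cannot be told apart.

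The level per kilobase of canonical transcript sets the genes roughly against each other. Which transcripts of each gene were present was not tested, so the order of genes with close values is uncertain. In PBS the order was FKBP5 433, HSD11B2 260, TSC22D3 169, DUSP1 162, PER1 30.8, NR3C1 25.7, ZBTB16 25, SGK1 23.4 and KLF9 14.8 CPM per kilobase. In the triple DUSP1 led with 229, followed by FKBP5 with 116, SGK1 with 35.1 and NR3C1 with 23.3 CPM per kilobase. PER1 had 11.5, TSC22D3 9.73, KLF9 2.03, ZBTB16 1.32 and HSD11B2 0.500 CPM per kilobase. HSD11B2 thus moved from the second place to the last.

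Over the 27 libraries, the log2 CPM of HSD11B2 ran with that of FKBP5 (r = 0.89), PER1 (0.86), TSC22D3 (0.85), ZBTB16 (0.79) and KLF9 (0.74), and less with that of NR3C1 (0.34), DUSP1 (-0.32) and SGK1 (-0.39). FKBP5, TSC22D3, PER1, ZBTB16 and KLF9 had coefficients of 0.88 to 0.96 among themselves, and SGK1 and DUSP1 had 0.64. These values describe the pattern over shared libraries and groups. The closest gene of all 12421 was CAMK2D for FKBP5 (r = 0.99), ETNK2 for TSC22D3 (0.99), TMEM129 for PER1 (0.98), GAREM1 for ZBTB16 (0.99), SYF2 for KLF9 (0.99), TMEM167B for NR3C1 (0.96), IRF1 for SGK1 (0.92) and MAP1LC3B for DUSP1 (0.93). ETNK2 was at 147 ± 19.7 CPM in PBS and 1.36 CPM in EGF+OSM, and IRF1 at 29.7 ± 3.76 CPM in PBS and 30.9 ± 1.95 CPM in the triple (SD, n = 3).

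A departure from additivity is the log2 difference of a combination from PBS minus the summed log2 differences of the ligands given alone, and each uses the same 3 PBS libraries. In EGF+OSM 5 of the 8 genes were above the sum and 1 below, beside 15.7% and 23% of all genes. TSC22D3 departed by 2.0 (SE 0.21, edgeR adjusted p = 1.11e-07): the sum predicted 3.0 CPM and 12 CPM were measured. FKBP5 departed by 0.59 (SE 0.07, edgeR adjusted p = 1.83e-07), KLF9 by 0.85 (SE 0.20, edgeR adjusted p = 0.0017) and NR3C1 by 0.41 (SE 0.07, edgeR adjusted p = 4.64e-05). ZBTB16 was the 1 gene below the sum, by -0.84 (SE 0.18, edgeR adjusted p = 0.000825), with 17.6 CPM predicted and 9.78 CPM measured. The DUSP1 departure of 0.26 (edgeR adjusted p = 0.0325) lost its call when any of 6 libraries was left out, namely PBS replicate 2, EGF replicate 1, OSM replicate 1 or 3 or EGF+OSM replicate 1 or 2 (edgeR adjusted p of 0.072 to 0.103).

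In EGF+TGFB 3 genes were above the sum and 3 below, beside 13.3% and 16.5% of all genes. SGK1 departed by 0.67 (SE 0.10, edgeR adjusted p = 2.14e-05), DUSP1 by 0.68 (SE 0.09, edgeR adjusted p = 7.98e-06) and NR3C1 by 0.36 (SE 0.07, edgeR adjusted p = 0.000399), all above the sum. FKBP5 was below it by -0.27 (SE 0.07, edgeR adjusted p = 0.00473). The departures of PER1 (-0.26, edgeR adjusted p = 0.0435) and ZBTB16 (-0.46, edgeR adjusted p = 0.0497) were called only narrowly. The ZBTB16 call was lost when any 1 of the 12 libraries of the 4 groups was left out, and the PER1 call when any of 10 was (edgeR adjusted p of 0.0533 to 0.121), so that 1 or 2 genes were then below the sum. In OSM+TGFB 3 genes were above the sum and 1 below, beside 9.61% and 13.7% of all genes. SGK1 was below by -0.85 (SE 0.10, edgeR adjusted p = 1.53e-06), with 209 CPM predicted and 116 CPM measured, and TSC22D3 was above by 0.99 (SE 0.19, edgeR adjusted p = 0.000836).

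In the triple 5 of the 8 genes were above the sum of the 3 single ligands and 0 below, beside 22% and 25.9% of all genes. TSC22D3 departed by 3.70 (SE 0.27, edgeR adjusted p = 5.93e-10), with 1.70 CPM predicted and 22.1 CPM measured. DUSP1 departed by 1.39 (SE 0.13, edgeR adjusted p = 4.38e-09), with 175 CPM predicted and 461 CPM measured. NR3C1 departed by 0.97 (SE 0.10, edgeR adjusted p = 1.92e-08), with 80.7 CPM predicted and 158 CPM measured. FKBP5 and KLF9 were above by 0.54 and 0.87 (edgeR adjusted p = 5.65e-05 and 0.0103). ZBTB16, at -0.51 (edgeR adjusted p = 0.0982), was called below the sum without OSM replicate 3 (-0.67, edgeR adjusted p = 0.00692) or triple replicate 2 (-0.67, edgeR adjusted p = 0.0259).

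**Figure D4:**
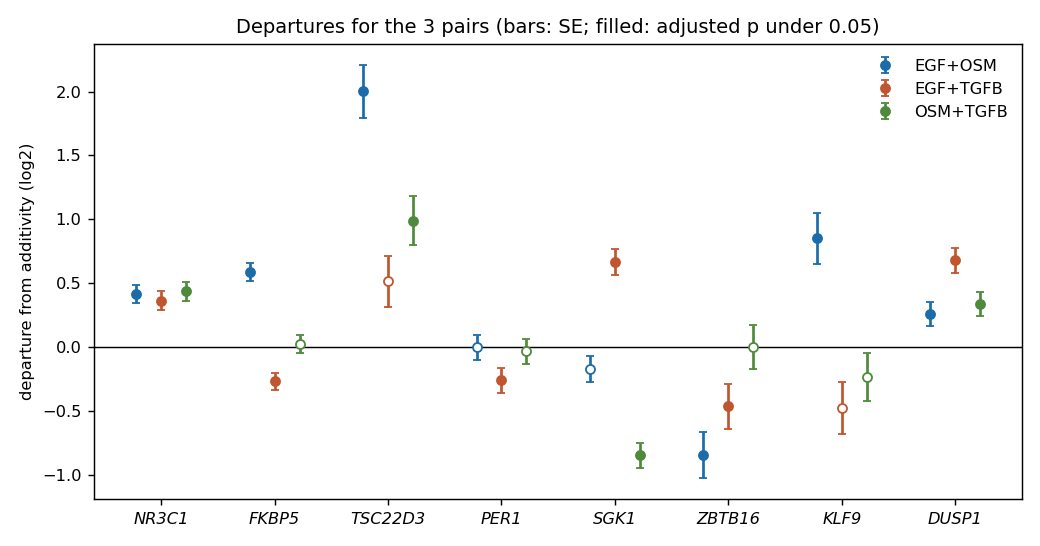
Departure of each pair from the sum of its single ligands (log2, bars are SE) for the 8 tested genes; filled points have an edgeR adjusted p under 0.05. NR3C1 lies above 0 for all 3 pairs, TSC22D3 reaches 2.0 in EGF+OSM, and SGK1 is at 0.67 in EGF+TGFB and -0.85 in OSM+TGFB.

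The other genes of cortisol metabolism and steroid reception formed a list of 13 without HSD11B2 and NR3C1, of which 9 were tested. EGF lowered 8 and raised 0, OSM lowered 5 and raised 2, TGFB lowered 4 and raised 2, EGF+OSM lowered 8 and raised 1, EGF+TGFB lowered 8 and raised 1, OSM+TGFB lowered 6 and raised 1, and the triple lowered 7 and raised 1. The median log2 difference was -1.58, -0.79, -0.20, -2.21, -1.81, -0.80 and -2.26 in that order of groups. Of the 9, 88.9% fell with EGF and 55.6% with OSM, beside 38.6% and 29.8% of all genes. For this list and those below, the shares of all genes called lower and higher were as follows. They were 38.6% and 34.9% in EGF, 29.8% and 33.5% in OSM, and 15.8% and 19.9% in TGFB. In EGF+OSM they were 39.6% and 37.6%, and in EGF+TGFB 37.5% and 36.2%. In OSM+TGFB they were 31.8% and 34.2%, and in the triple 36.7% and 37.7%. NR3C2, the mineralocorticoid receptor, was at 8.95 ± 0.469 CPM in PBS, 4.11 ± 0.685 CPM in T0, 1.81 ± 0.511 CPM in EGF, 1.05 ± 0.278 CPM in OSM and 5.40 ± 0.822 CPM in TGFB (SD, n = 3). In the triple it was at 0.200 ± 0.137 CPM, or 2 to 14 counts per library, and it was called lower in all 7 ligand groups. HSD11B1, the regenerating enzyme, was at 10 to 15 counts per library in PBS and 40 to 46 in the triple, or 0.294 ± 0.0756 and 1.29 ± 0.144 CPM (SD, n = 3). HSD11B1 rose in the triple (log2 2.12, SE 0.36, edgeR adjusted p = 8.05e-06) and was also called higher in EGF+OSM and in EGF+TGFB (edgeR adjusted p = 0.0241 and 0.0189). The count of 1 raised gene in these 2 groups became 0 without PBS replicate 2, and also without replicate 1 of either group in its own comparison. In TGFB 1 gene in place of 2 was raised without PBS replicate 1 or 2 or TGFB replicate 3.

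H6PD, which feeds HSD11B1 with reducing power, fell by 0.93 with EGF (edgeR adjusted p = 5.85e-12) and rose by 0.50 with OSM (edgeR adjusted p = 3.75e-07) and by 0.66 with OSM+TGFB (edgeR adjusted p = 2.85e-09) on the log2 scale. Its level was 56.0 ± 1.14 CPM in PBS, 29.5 ± 1.73 CPM in EGF and 79.1 ± 2.92 CPM in OSM (SD, n = 3). The aldo-keto reductases AKR1C1, AKR1C2 and AKR1C3, which reduce steroids at several positions, are related copies, so the split of reads among them is uncertain. AKR1C1 was at 321 ± 37.8 CPM in PBS, 34.5 ± 8.16 CPM in EGF and 18.4 ± 2.54 CPM in EGF+OSM. AKR1C2 was at 425 ± 76.2 CPM in PBS, 809 ± 88.5 CPM in TGFB and 24.4 ± 4.07 CPM in EGF+OSM.

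The chaperones that fold and hold the receptor were in part higher and in part lower with EGF. Of 14 tested besides FKBP5, EGF raised 11 and lowered 3, OSM raised 7 and lowered 4, TGFB raised 0 and lowered 5, and the triple raised 9 and lowered 4. EGF+OSM raised 11 and lowered 3, EGF+TGFB raised 9 and lowered 4, and OSM+TGFB raised 7 and lowered 5. The share raised was 78.6% with EGF and 50% with OSM, beside 34.9% and 33.5% of all genes. TGFB lowered 35.7%, beside 15.8% of all genes. The 3 lowered with EGF were DNAJB1 (log2 -0.42) and ST13 (log2 -0.59), both partners of HSP70, and BAG1 (log2 -1.17). HSP90AA1, a stress-inducible HSP90 with close copies in the genome, was at 689 ± 14.5 CPM in PBS and 2256 ± 180 CPM in EGF. HSP90AB1, the constitutive HSP90, was at 1066 ± 28 CPM in PBS and 1962 ± 107 CPM in EGF (log2 0.88, edgeR adjusted p = 6.75e-14). FKBP4, which opposes FKBP5 by promoting entry of the receptor into the nucleus, rose by 0.87 with EGF (edgeR adjusted p = 1.04e-10) and by 1.01 with EGF+OSM (edgeR adjusted p = 3.53e-12) on the log2 scale. It fell with TGFB (log2 -0.46, edgeR adjusted p = 2.13e-05) and with OSM+TGFB (log2 -0.76, edgeR adjusted p = 1.95e-09). BAG1, a co-chaperone that inhibits the receptor, fell in all 7 groups, from 209 ± 18.4 CPM in PBS to 31.6 ± 1.59 CPM in the triple.

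Of the 16 coregulators tested, EGF raised 4 and lowered 10, OSM raised 5 and lowered 5, TGFB raised 5 and lowered 1, EGF+OSM raised 5 and lowered 9, EGF+TGFB raised 4 and lowered 8, OSM+TGFB raised 6 and lowered 3 (5 under upper-quartile scaling), and the triple raised 5 and lowered 7. With OSM 31.2% rose and 31.2% fell, near the 33.5% and 29.8% of all genes, and EGF lowered 62.5%, beside 38.6%. In the triple 31.2% rose and 43.8% fell, beside 37.7% and 36.7% of all genes. The 1 gene lowered by TGFB was NCOA2, and its call was lost when any of the 6 libraries was left out. NCOA2, a coactivator that also serves the repressive action of the receptor, was at 72.6 ± 0.628 CPM in PBS, 33 ± 2.46 CPM in EGF, 37.8 ± 3.47 CPM in OSM and 64.6 ± 1.59 CPM in TGFB (SD, n = 3). NRIP1, a corepressor of nuclear receptors, rose by 0.82 with OSM (edgeR adjusted p = 1.17e-07), by 0.80 with TGFB (edgeR adjusted p = 6.4e-07) and by 1.29 with OSM+TGFB (edgeR adjusted p = 3.9e-11) on the log2 scale.

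The list of 25 other genes induced by glucocorticoids, 23 of them tested, did not move in 1 direction. EGF lowered 17 and raised 4, OSM lowered 10 and raised 9, TGFB lowered 8 and raised 6, and the triple lowered 13 and raised 8. EGF+OSM lowered 13 and raised 6, EGF+TGFB lowered 16 and raised 5, and OSM+TGFB lowered 10 and raised 9. The shares raised with OSM (39.1%) and the triple (34.8%) lie near the 33.5% and 37.7% of all genes, and EGF lowered 73.9%, beside 38.6%. Without TGFB replicate 1, TGFB lowered 5 of the list. PDK4, a kinase that restrains glucose oxidation, was at 481 ± 37.6 CPM in PBS, 21.2 ± 1.74 CPM in EGF, 58.6 ± 13.2 CPM in OSM and 4.02 ± 1.14 CPM in the triple. CDKN1C, a cell-cycle inhibitor, was at 121 ± 28.8 CPM in PBS and 1.30 ± 0.737 CPM in EGF+OSM. MAOA, which degrades monoamines, was at 504 ± 22 CPM in PBS and 27.9 ± 4.26 CPM in EGF, and METTL7A fell from 127 ± 3.78 CPM in PBS to 2.67 ± 0.237 CPM in the triple. ERRFI1, an inhibitor of the EGF receptor, fell by 1.32 with EGF (edgeR adjusted p = 1.9e-08) and differed by 0.04 with OSM (edgeR adjusted p = 0.805) on the log2 scale.

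Other genes of that list rose. ANGPTL4, an inhibitor of lipoprotein lipase that also responds to TGFB and hypoxia, had the largest rise of the list in all 7 ligand groups, from 29.8 ± 4.2 CPM in PBS to 564 ± 47.5 CPM in EGF, 679 ± 122 CPM in OSM, 144 ± 13.6 CPM in TGFB and 3158 ± 47.0 CPM in the triple. MT2A, a metal-binding protein with near-identical copies, was at 325 ± 86.6 CPM in PBS, 1103 ± 87.6 CPM in T0, 3192 ± 134 CPM in EGF and 5502 ± 450 CPM in OSM (SD, n = 3). CEBPD, a transcription factor induced by both glucocorticoids and STAT3, rose by 1.22 with OSM (edgeR adjusted p = 4.01e-05) on the log2 scale. It fell with EGF (log2 -0.83, edgeR adjusted p = 0.00196) and with EGF+TGFB (log2 -1.77, edgeR adjusted p = 8.79e-07). KLF15 was at 17 to 21 counts per library in PBS and 0 in all libraries of EGF+TGFB and the triple.

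Genes that glucocorticoids repress, 15 tested besides the 9 genes described here, were mostly higher. EGF raised 12 and lowered 0, OSM raised 11 and lowered 3, TGFB raised 12 and lowered 1, and the triple raised 14 and lowered 1. EGF+OSM raised 11 and lowered 2, EGF+TGFB raised 13 and lowered 0, and OSM+TGFB raised 12 and lowered 1. The share raised was 80% with EGF and 80% with TGFB, beside 34.9% and 19.9% of all genes. The 1 lowered gene became 0 in TGFB without PBS replicate 3 or TGFB replicate 1 or 2, and in the triple without PBS replicate 1 or 2 or triple replicate 1 or 2. The median log2 difference was 1.97 in EGF, 1.28 in OSM, 1.62 in TGFB and 3.80 in the triple. With genes at 0 in all libraries of a group set to a floor of 3 counts per library, these medians were 1.97, 0.79, 1.15 and 3.80. IL6, an inflammatory cytokine, had 0 counts in the PBS libraries and 353 to 617 per library, or 14.1 ± 1.60 CPM, in the triple. MMP3, a matrix protease, had 0 to 1 counts per library in PBS, 9.29 ± 2.55 CPM in OSM and 67.3 ± 14.7 CPM in OSM+TGFB. MMP1, a collagenase, had 0 counts in the PBS libraries and 3.26 ± 0.590 CPM in EGF. LIF, a cytokine related to OSM, fell with OSM (log2 -1.87, edgeR adjusted p = 9.07e-08).

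**Figure D5:**
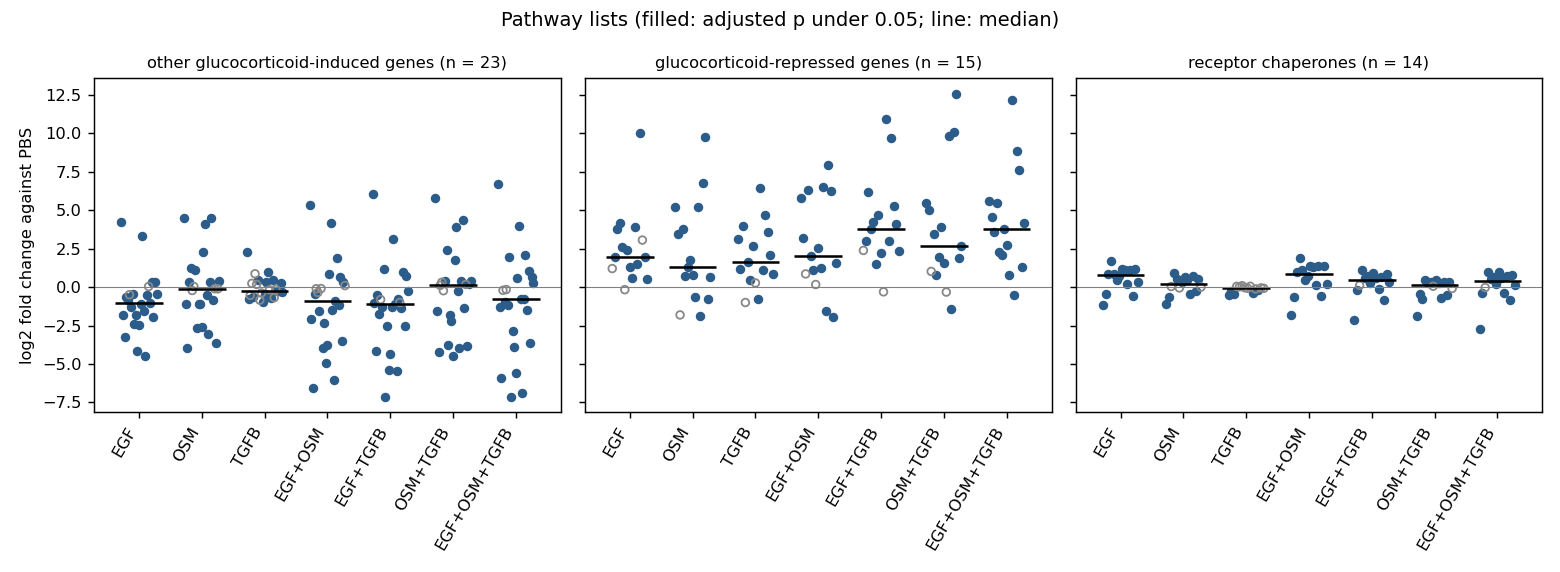
Fitted log2 fold change against PBS of each tested gene in 3 lists by ligand group; filled points have an edgeR adjusted p under 0.05 and lines are medians. The glucocorticoid-induced genes spread to both sides of 0, and the repressed genes lie mostly above it; fitted values of genes with no counts in a group, such as IL6, depend on the prior count.

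Of 18 clock genes tested besides PER1, EGF lowered 14 and raised 4, OSM lowered 12 and raised 3, TGFB lowered 8 and raised 5, and the triple lowered 12 and raised 3. EGF+OSM lowered 13 and raised 3, EGF+TGFB lowered 14 and raised 4, and OSM+TGFB lowered 12 and raised 4. The share lowered was 77.8% with EGF and 66.7% with OSM, beside 38.6% and 29.8% of all genes. PER2, the paralogue of PER1, was at 34.7 ± 1.63 CPM in PBS, 20.8 ± 1.17 CPM in EGF, 30.1 ± 2.63 CPM in OSM and 9.64 ± 0.664 CPM in EGF+TGFB (SD, n = 3), and was called lower in all 7 groups. NR1D1, a repressor of the clock's positive arm, was at 19.3 ± 1.56 CPM in PBS and 2.95 ± 0.423 CPM in the triple. It did not pass in TGFB (log2 -0.27, edgeR adjusted p = 0.166) or EGF+OSM (log2 -0.25, edgeR adjusted p = 0.137). DBP, an output factor of the clock, was at 8.55 ± 0.483 CPM in PBS and 0.341 ± 0.0550 CPM in the triple. BHLHE40, a repressor of clock activators that hypoxia and TGFB also induce, rose in the triple from 61.7 ± 0.860 to 436 ± 32.1 CPM (log2 2.82, SE 0.11, edgeR adjusted p = 2.15e-16). Between T0 and PBS 9 of the 18 rose, 2 fell and 7 were not called, beside 16.2% of all genes higher and 18.9% lower. In these controls PER3 rose by 1.67 between T0 and PBS (edgeR adjusted p = 9.7e-09) and ARNTL fell by 0.80 (edgeR adjusted p = 1.76e-08) on the log2 scale.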

How the data were processed

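RNA was sequenced from 27 MCF10A libraries, 3 in each of 9 groups set by the labels. Trim Galore 0.4.3, cutadapt 1.10, FastQC 0.11.5, kallisto 0.46.2 and the genome build GRCh38.p5 (hg38) are named, with no role or order, per the submitters' processing notes. The values the authors deposited were treated as estimated counts, and were already whole numbers. A total of 40487 rows were summed by symbol to 36536 genes. With edgeR 4.0.16 in R 4.3.3, filterByExpr by group left 15575 genes, library sizes were scaled by trimmed means (factors 0.867 to 1.12), and 1 quasi-likelihood model of the 9 groups was fitted (18 residual degrees of freedom, biological coefficient of variation 7.83%). Contrasts were tested with Benjamini-Hochberg adjustment over all genes, and the procedure was tested on simulated data. Alternatives were upper-quartile scaling, DESeq2 1.42.0, no filter, rows as deposited, a replicate block and each library left out. At these totals the spread between replicates limits precision more than counting does; reads without molecular identifiers make counting error a lower limit.

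The genes and lists were chosen with earlier results of these data known. Named besides the 9 genes were 10 genes of the lists chosen by name (HSD11B1, H6PD, NR3C2, FKBP4, HSP90AB1, MT2A, ERRFI1, CEBPD, PER2 and NR1D1), the called genes with the largest rise or fall of a list in a ligand group, and the genes most like each of the 9 by Pearson r. DCN, CD14, PTPRC, CD3E, CDH5 and COL3A1 were named from the marker lists, AKR1C3 as a copy of AKR1C1, and DNAJB1 and ST13 as chaperones lowered by EGF, after their values were seen. Coordinates and transcript lengths are those of GENCODE release 44 on GRCh38.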

Additional observations from a re-analysis of the deposited data

Results flagged for a closer look

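Of 24 tests of a pair of ligands against the sum of its single ligands, over the 8 tested genes and 3 pairs, 16 passed: the effect of a ligand on the gene differed with and without the other ligand (edgeR's quasi-likelihood interaction contrast, Benjamini-Hochberg adjusted p under 0.05). Of all genes, 15.7% were above and 23% below the sum in EGF+OSM. The shares were 13.3% and 16.5% in EGF+TGFB, and 9.61% and 13.7% in OSM+TGFB. All contrasts of a pair share the 3 PBS libraries. Values are departures on the log2 scale.

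In EGF+OSM the departures were 0.41 for NR3C1, 0.59 for FKBP5, 2.0 for TSC22D3, 0.85 for KLF9 and 0.26 for DUSP1, with levels above the sum, and -0.84 for ZBTB16, with a level below it. In EGF+TGFB they were 0.36 for NR3C1, 0.67 for SGK1 and 0.68 for DUSP1, and -0.27 for FKBP5, -0.26 for PER1 and -0.46 for ZBTB16. In OSM+TGFB they were 0.44 for NR3C1 (edgeR adjusted p = 8.57e-05), 0.99 for TSC22D3 and 0.34 for DUSP1 (edgeR adjusted p = 0.0103), and -0.85 for SGK1. NR3C1 and DUSP1 were above the sum in all 3 pairs. The calls of DUSP1 in EGF+OSM and of PER1 and ZBTB16 in EGF+TGFB were lost when single libraries were left out, as given above. No cause of these departures was tested.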

How the results depend on the processing

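All 12 comparisons kept their counts of genes called to within 1.5 times under every alternative, and no called result changed direction. Among results not called, 7 differences of the 8 genes (DUSP1 in EGF+TGFB and OSM+TGFB, and departures of PER1, FKBP5, ZBTB16 and SGK1) and 10 list medians near 0 changed sign under some alternative; that of the induced list in OSM+TGFB, 0.11, ranged from -0.05 to 0.18. Of 1272 repeats of the tests of the 8 genes, 1221 kept their call, 43 lost it and 8 gained it; of 110 repeats of the HSD11B2 tests, 108 kept it. The HSD11B2 difference between TGFB and T0 passed with the replicate block (0.40, edgeR adjusted p = 0.01) and, over the left-out libraries, ranged from 0.28 to 0.53. The number of the 8 genes below the sum in EGF+TGFB was 3 in the fit given. It was 1 with no filter on low counts (PER1 and ZBTB16 were no longer called) and 1 to 2 when single libraries were left out. Over all alternatives it ran from 1 to 4, and the number above the sum from 3 to 4. In the triple the number below the sum was 0 to 1. The TSC22D3 and KLF9 departures in EGF+TGFB passed with the replicate block (0.51 and -0.49, edgeR adjusted p = 0.0112 and 0.00883) and in DESeq2 (0.51 and -0.48, adjusted p = 0.0232 and 0.0391), and that of ZBTB16 was lost under upper-quartile scaling and with rows as deposited (edgeR adjusted p = 0.0576 and 0.0524). The labels do not say that a replicate number marks a shared batch. The correlation of same-numbered replicates' deviations was -0.03 to 0.18 over 108 pairs (median 0.06, 23 over 0.1), and that of differently numbered ones had a median of -0.03 with 1 of 216 over 0.1; 26 of 27 libraries correlated best with their own number, which is a hint of pairing from the data, not the design. The replicate block changed no other call of the 9 genes. Of 1908 repeats of list counts, 1783 stayed within 1.5 times, and of 954 list medians, 926 stayed within the replicate spread. Upper-quartile scaling moved the median of all genes in EGF from -0.07 to -0.14, and by no more than 0.1 on the log2 scale in any comparison. Depth limits HSD11B1, NR3C2 in the combinations, KLF15, IL6, MMP1 and MMP3, which rest on few counts. It also limits HSD11B2 in the triple, at 26 to 36 counts per library.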
